A study of Mus musculus with 96 samples.

Results

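A set of 10 genes, listed as brown adipocyte identity genes outside mitochondria, was followed through brown and white fat of wild-type and Ucp1-KO mice. They are the transcription factors Zic1, Lhx8 and Tbx1, the channels, receptor and transporter Otop1, Kcnk3, P2rx5 and Slc36a2, the enzymes Pank1 and Phospho1, and the membrane protein Tmem26. They were chosen by symbol from the deposited expression table, 10 of 29072 gene symbols, and the transcript of highest mean over the 96 libraries stood for each gene.

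RNA had been sequenced from the interscapular brown fat (iBAT), a depot of heat-producing fat, and from the inguinal white fat (iWAT) under the skin of the groin. All mice were male C57BL/6J animals, either wild-type or UCP1(-/-), that is knocked out for uncoupling protein 1 (Ucp1-KO), the proton carrier that lets brown fat mitochondria burn fuel as heat. For 4 weeks, mice of each genotype lived at 20 °C, mild cold for a mouse, on a control diet with 13% of its energy as fat, or at thermoneutral 30 °C on that diet or on a high fat diet with 48% of its energy as fat. Each of these 6 groups held 8 animals and gave 8 libraries per depot, so there were 12 groups. The labels do not say how the Ucp1-KO line was made, and they do not tell which libraries of the 2 depots came from 1 animal, so depots were compared unpaired. A library held 8.91 to 19.2 M reads, as recovered from the steps of the deposited values.

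Brown fat burns lipid and glucose in mitochondria uncoupled by Ucp1, and its cells descend largely from the somites that also give rise to muscle. White depots such as iWAT can form beige adipocytes in the cold, which carry many brown genes but arise from other precursors. Lists of identity genes therefore separate classical brown markers, such as Zic1 and Lhx8, from beige markers, such as Tbx1 and Tmem26, and from genes that both cell types share.

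The stretches just before the transcription start are shown for Zic1, which was higher in every iBAT library than in any iWAT library, and for Otop1, Phospho1 and Pank1, members that rose and fell together in iWAT. They are the 250 bases before the start site in RefSeq (GRCm38.p6), 5′ to 3′ on the gene's strand. Capitals mark matches on either strand to the TATA, CCAAT and GC boxes, common elements of promoters whose letters are spelled out after the sequences.
Zic1 (chr9:91365769-91366018, - strand): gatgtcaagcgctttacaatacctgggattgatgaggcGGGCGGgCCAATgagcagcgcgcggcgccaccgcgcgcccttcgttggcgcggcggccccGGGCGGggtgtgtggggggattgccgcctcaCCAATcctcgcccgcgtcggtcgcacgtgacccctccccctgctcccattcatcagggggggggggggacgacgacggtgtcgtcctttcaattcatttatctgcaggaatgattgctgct
Otop1 (chr5:38277154-38277403, + strand): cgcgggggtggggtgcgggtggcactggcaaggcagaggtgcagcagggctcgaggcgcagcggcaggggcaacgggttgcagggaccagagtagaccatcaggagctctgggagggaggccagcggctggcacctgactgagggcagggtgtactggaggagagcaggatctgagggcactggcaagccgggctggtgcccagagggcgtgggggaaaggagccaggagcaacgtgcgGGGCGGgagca
Phospho1 (chr11:95824250-95824499, + strand): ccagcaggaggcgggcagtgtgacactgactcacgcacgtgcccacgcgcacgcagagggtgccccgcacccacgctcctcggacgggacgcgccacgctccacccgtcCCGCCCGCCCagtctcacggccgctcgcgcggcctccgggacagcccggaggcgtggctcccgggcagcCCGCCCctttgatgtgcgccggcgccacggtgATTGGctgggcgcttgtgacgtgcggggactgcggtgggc
Pank1 (chr19:34879456-34879705, - strand): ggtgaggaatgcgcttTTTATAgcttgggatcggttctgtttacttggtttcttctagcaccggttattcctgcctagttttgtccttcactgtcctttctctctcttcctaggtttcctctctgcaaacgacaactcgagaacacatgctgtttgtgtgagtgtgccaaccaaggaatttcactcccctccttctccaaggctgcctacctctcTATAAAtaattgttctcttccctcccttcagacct

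RefSeq held 9 such stretches for 7 of the 10 members. Of all 32851 promoters of this length, 12.4% held the TATA box, searched as TATAAA. The CCAAT box, searched by these letters, was in 33.9% of them. The GC box, searched as GGGCGG, was in 32.7%. Zic1 had both GC and CCAAT boxes, and Otop1 had a GC box next to its start site. Phospho1 had GC boxes, the first pair of which overlap, and a CCAAT box, all on the other strand. The Pank1 stretch shown had a TATA box at positions -35 to -30 and another on the other strand, while the other Pank1 stretch of RefSeq, not shown, had 2 CCAAT boxes and no TATA box. The letters of a nuclear receptor half-site (AGGTCA, in 14.0% of all promoters), an estrogen-related receptor site (TCAAGGTCA, 0.387%), a cyclic AMP response element (TGACGTCA, 1.55%), a C/EBP site (TTGCNNAA, 9.56%) and a LIM homeobox core (TAATTA, 4.84%) were in none of the 9 stretches, and those of an EBF site (CCCNNGGG, 11.8%) only in that of Tmem26. These matches describe letters and nothing about binding.

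As a check of the tissue, all 10 pan-adipocyte genes were read in every group, with a summed level of 14103 to 34354 RPKM (reads scaled to the length of the transcript and the size of the library) over the 96 libraries. Ucp1 itself lay between 546 and 1145 RPKM in Ucp1-KO iBAT and between 2428 and 9281 RPKM in wild-type iBAT, without overlap. Reads were thus still counted on the gene in knockout libraries, and in iWAT at 20 °C its level was higher in Ucp1-KO libraries, at 196 to 597 RPKM, than in wild-type libraries, at 23.9 to 281 RPKM, so the gene does not check the labels there. Skeletal muscle markers varied widely within groups, from 4.19 to 13963 RPKM summed over 14 genes, and exceeded 3000 RPKM in 16 libraries, 10 of iBAT and 6 of iWAT, called muscle-rich here. Macrophage markers summed to 48.3 to 256 RPKM in wild-type iBAT and to 243 to 1521 RPKM in Ucp1-KO iBAT at 30 °C on either diet. Median correlations with the other libraries of the depot were lowest for replicate 5 of Ucp1-KO iBAT at 30 °C (r = 0.959) and replicate 8 of Ucp1-KO iWAT at 20 °C (r = 0.953). Replicate numbers here only name libraries.

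The members did not behave as a single group. Otop1, Kcnk3, P2rx5, Slc36a2, Pank1 and Phospho1 were higher in iBAT than in iWAT, and all rose in iWAT in the cold and in Ucp1-KO mice on control diet. In iBAT the same genes differed among themselves, and several were lower in Ucp1-KO than in wild-type mice at 30 °C. Zic1 was read in every iBAT library and was close to 0 in all 6 groups of iWAT. Lhx8 did not separate the depots, and Tbx1 and Tmem26 were higher in iWAT, so the name of brown identity genes was not borne out for these 3 genes in these tissues. In whole tissue, more cells of a type and more RNA per cell cannot be told apart.

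**Figure D1:**
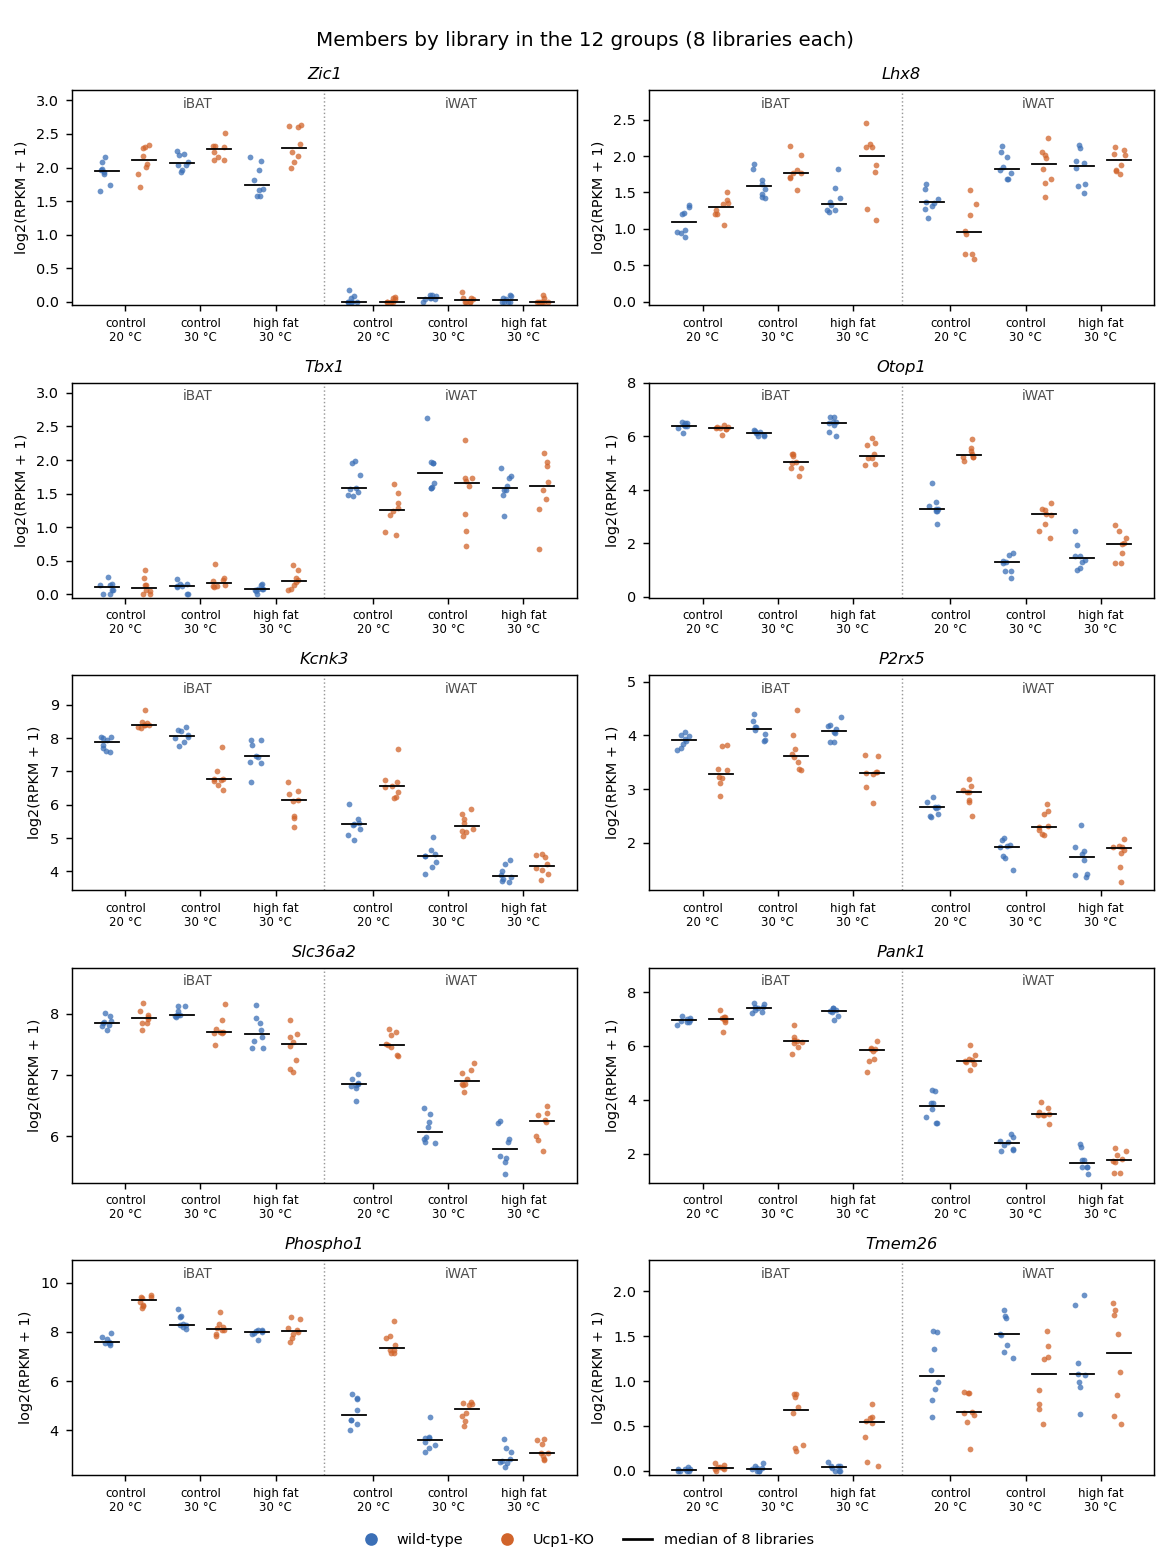
Level of each member, as log2(RPKM + 1), in each of the 96 libraries, by depot, genotype and condition (20 °C and 30 °C on control diet, then 30 °C on high fat diet); each group holds 8 libraries, and black lines mark medians. Zic1 lies near 0 in every iWAT group, Tbx1 near 0 in every iBAT group, and Otop1, Kcnk3, P2rx5, Slc36a2, Pank1 and Phospho1 share a pattern of highs and lows in iWAT that they do not share in iBAT.

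Of the transcription factors, Zic1, a zinc finger protein and the usual marker of classical brown fat, was read in all 48 iBAT libraries. Zic1 levels in wild-type iBAT were 2.13 to 3.45 RPKM (median 2.85) at 20 °C, 2.8 to 3.75 (median 3.18) at 30 °C and 1.98 to 3.47 (median 2.35) on high fat diet. Ucp1-KO iBAT held Zic1 at 2.27 to 4.04 RPKM (median 3.32) at 20 °C, 3.33 to 4.71 (median 3.83) at 30 °C and 3.00 to 5.18 (median 3.88) on high fat diet. Behind these levels lay 39 to 142 reads per library. In iWAT the same transcript had 0 to 3 reads per library, at most 0.128 RPKM, and it did not pass the filter for testing there, which asked for at least 0.5 RPKM in at least 8 libraries. Every iBAT library lay above every iWAT library, and the 6 depot differences, on the log2(RPKM + 1) scale, ran from 1.78 to 2.32. On this scale the fold of a gene near 0 is understated.

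Within iBAT, Zic1 varied 1.61-fold between the lowest and the highest group mean, and the groups overlapped in every comparison. On high fat diet it was higher in Ucp1-KO iBAT than in wild-type iBAT (1.61-fold in mean RPKM; difference 0.52 ± 0.10, SE, limma with Benjamini-Hochberg adjustment, adjusted p = 1.19e-05), a call (an adjusted p below 0.05) that was lost with quantile normalization, which gives all libraries the same distribution of values (0.14, adjusted p = 0.222). It was lower on high fat than on control diet in wild-type iBAT (-0.27 ± 0.10, adjusted p = 0.0288). That call was lost without the muscle-rich libraries (-0.22, adjusted p = 0.109), an alternative chosen after seeing the data, and without replicate 3, 7 or 8 of wild-type iBAT at 30 °C, or replicate 1, 2, 3 or 8 of wild-type iBAT on high fat diet (differences -0.26 to -0.24, adjusted p 0.0515 to 0.0702). The temperature differences of -0.16 in wild-type and -0.16 in Ucp1-KO mice did not pass, and quantile normalization turned the latter to 0.33 (adjusted p = 0.00438).

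Lhx8, a LIM homeobox factor known from forebrain neurons and tooth germs and listed as a classical brown marker, was read at about the same low level in both depots. Lhx8 levels in wild-type iBAT were 0.856 to 1.52 RPKM (median 1.14) at 20 °C, 1.69 to 2.71 (median 2.00) at 30 °C and 1.35 to 2.54 (median 1.55) on high fat diet. Ucp1-KO iBAT held Lhx8 at 1.08 to 1.84 RPKM (median 1.47) at 20 °C, 1.9 to 3.42 (median 2.41) at 30 °C and 1.17 to 4.46 (median 3.00) on high fat diet. In iBAT every 20 °C library lay below every 30 °C library on control diet, in each genotype. Lhx8 levels in wild-type iWAT were 1.22 to 2.06 RPKM (median 1.57) at 20 °C, 2.20 to 3.40 (median 2.55) at 30 °C and 1.81 to 3.44 (median 2.65) on high fat diet. Ucp1-KO iWAT held Lhx8 at 0.50 to 1.91 RPKM (median 0.932) at 20 °C, 1.70 to 3.76 (median 2.73) at 30 °C and 2.38 to 3.34 (median 2.86) on high fat diet. The depots overlapped in all 6 conditions. Lhx8 was lower at 20 °C than at 30 °C in both depots and both genotypes, by 1.78-fold in wild-type iBAT (-0.51 ± 0.12, adjusted p = 0.000695) and by 2.60-fold in Ucp1-KO iWAT (-0.88 ± 0.12, adjusted p = 4.29e-08), although in Ucp1-KO iBAT the difference of -0.52 moved to -0.24 (adjusted p = 0.0611) after median-ratio scaling, which sets the median ratio of genes between libraries to 1, and to -0.07 after quantile normalization (adjusted p = 0.612).

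Between depots, Lhx8 was slightly lower in iBAT in wild-type mice (-0.28 in the cold, -0.26 at 30 °C with control diet and -0.42 with high fat diet), but the sign turned with quantile normalization in all 3 conditions (0.45, 0.52 and 0.27). At 20 °C the call was lost without replicate 3, 4 or 5 of wild-type iBAT at 20 °C, or replicate 2 or 6 of wild-type iWAT at 20 °C (differences -0.26 to -0.24, adjusted p 0.0534 to 0.0654), and at 30 °C without replicate 1, 4, 6 or 7 of wild-type iBAT at 30 °C, or replicate 2, 5 or 7 of wild-type iWAT at 30 °C (differences -0.25 to -0.22, adjusted p 0.0568 to 0.0902). In Ucp1-KO mice at 20 °C it was higher in iBAT (0.31 ± 0.12, adjusted p = 0.0204), a call lost without replicate 4, 5 or 8 of Ucp1-KO iWAT at 20 °C (differences 0.25 to 0.26, adjusted p 0.0582 to 0.0652). In wild-type mice, no depot difference of Lhx8 kept its direction under every scaling.

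Tbx1, a T-box factor of pharyngeal development that is used as a marker of beige cells, ran the other way. In iBAT it had 0 to 9 reads per library and at most 0.376 RPKM, below the filter for testing in that depot. With no filter, its genotype difference in iBAT on high fat diet was called, with Ucp1-KO higher (means 0.165 and 0.0617 RPKM; 0.13 ± 0.05, adjusted p = 0.0324) and passed in no other comparison within iBAT. Tbx1 levels in wild-type iWAT were 1.77 to 2.95 RPKM (median 1.99) at 20 °C, 1.99 to 5.18 (median 2.51) at 30 °C and 1.25 to 2.69 (median 2.00) on high fat diet. Ucp1-KO iWAT held Tbx1 at 0.855 to 2.14 RPKM (median 1.40) at 20 °C, 0.642 to 3.90 (median 2.15) at 30 °C and 0.596 to 3.29 (median 2.06) on high fat diet. The groups overlapped in every comparison within iWAT. Every iWAT library of a condition lay above every iBAT library of that condition, and the depot differences ran from -1.75 to -1.13. Within iWAT, Tbx1 was called only between genotypes at 20 °C (1.55-fold lower in Ucp1-KO; -0.41 ± 0.17, adjusted p = 0.0338). That call was lost after median-ratio scaling (-0.19, adjusted p = 0.351) and quantile normalization (-0.11, adjusted p = 0.571), and without replicate 3 or 8 of Ucp1-KO iWAT at 20 °C, or replicate 1, 2 or 3 of wild-type iWAT at 20 °C (differences -0.40 to -0.36, adjusted p 0.0519 to 0.0748).

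Otop1 forms a proton channel in the plasma membrane. Otop1 levels in wild-type iBAT were 68.9 to 91.0 RPKM (median 83.4) at 20 °C, 62.6 to 73.8 (median 68.7) at 30 °C and 63.8 to 104 (median 89.6) on high fat diet. Ucp1-KO iBAT held Otop1 at 65.1 to 84.4 RPKM (median 78.0) at 20 °C, 21.7 to 39.4 (median 31.6) at 30 °C and 29.1 to 60.8 (median 37.7) on high fat diet. At 30 °C every Ucp1-KO library lay below every wild-type library on both diets, while at 20 °C the genotypes overlapped. Otop1 levels in wild-type iWAT were 5.49 to 18.2 RPKM (median 8.75) at 20 °C, 0.626 to 2.12 (median 1.42) at 30 °C and 0.970 to 4.51 (median 1.72) on high fat diet. Ucp1-KO iWAT held Otop1 at 32.6 to 58.9 RPKM (median 38.1) at 20 °C, 3.56 to 10.2 (median 7.45) at 30 °C and 1.36 to 5.38 (median 2.96) on high fat diet. At 20 °C every iWAT library lay above every 30 °C control library of its genotype, and every Ucp1-KO library on control diet lay above every wild-type library at the same temperature. Otop1 had the largest wild-type cold difference of the members in iWAT, 7.08-fold in mean RPKM (2.14 ± 0.20, adjusted p = 1.77e-09), against 5.88-fold in Ucp1-KO mice (2.43 ± 0.20, adjusted p = 6.31e-13).

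In iBAT the cold difference of Otop1 was 1.23-fold in wild-type mice (0.29 ± 0.11, adjusted p = 0.0365) and 2.42-fold in Ucp1-KO mice (1.27 ± 0.11, adjusted p = 1.97e-13). The wild-type call was lost without replicate 1, 3, 4 or 7 of wild-type iBAT at 20 °C, or replicate 2, 7 or 8 of wild-type iBAT at 30 °C (differences 0.27 to 0.28, adjusted p 0.0501 to 0.0641). Otop1 was the member that went up on high fat diet in iBAT, by 0.33 in wild-type mice (adjusted p = 0.02, and 0.0629 after median-ratio scaling) and by 0.36 in Ucp1-KO mice (adjusted p = 0.0231). The latter call was lost without the muscle-rich libraries (adjusted p = 0.0858) and without replicate 5 of Ucp1-KO iBAT at 30 °C, or replicate 3, 4 or 6 of Ucp1-KO iBAT on high fat diet (differences 0.28 to 0.32, adjusted p 0.0565 to 0.0743). In Ucp1-KO iWAT it was 2.32-fold lower on high fat diet (-1.02 ± 0.20, adjusted p = 0.000214).

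Kcnk3 encodes a background potassium channel that sets the resting membrane potential. Kcnk3 levels in wild-type iBAT were 191 to 263 RPKM (median 233) at 20 °C, 216 to 319.9 (median 268) at 30 °C and 102 to 244 (median 174) on high fat diet. Ucp1-KO iBAT held Kcnk3 at 315 to 457 RPKM (median 338) at 20 °C, 86.0 to 211 (median 107) at 30 °C and 39.3 to 101 (median 69.0) on high fat diet. The genotype order thus turned with temperature: every Ucp1-KO library lay above every wild-type library at 20 °C and below at 30 °C on both diets. Kcnk3 levels in wild-type iWAT were 29.6 to 63.4 RPKM (median 41.5) at 20 °C, 14.2 to 32.0 (median 20.9) at 30 °C and 11.9 to 19.3 (median 13.5) on high fat diet. Ucp1-KO iWAT held Kcnk3 at 72.5 to 203 RPKM (median 92.8) at 20 °C, 32.5 to 57.2 (median 40.5) at 30 °C and 12.5 to 21.8 (median 16.8) on high fat diet. Every Ucp1-KO library on control diet lay above every wild-type library of its temperature in iWAT, and on high fat diet the genotypes overlapped. Kcnk3 was 1.53-fold higher in Ucp1-KO iBAT at 20 °C (0.61 ± 0.16, adjusted p = 0.00181) and 2.28-fold lower at 30 °C (-1.22 ± 0.16, adjusted p = 6.32e-09). In iWAT it was 2.46-fold higher in Ucp1-KO mice at 20 °C (1.23 ± 0.16) and 2.01-fold higher at 30 °C (0.98 ± 0.16), and on high fat diet the difference of 0.24 ± 0.16 did not pass (adjusted p = 0.737). Kcnk3 was lower on high fat diet in both depots and both genotypes, and in wild-type iWAT (-0.50 ± 0.16, adjusted p = 0.0287) this call was lost without replicate 4, 5 or 8 of wild-type iWAT at 30 °C, or replicate 1 or 6 of wild-type iWAT on high fat diet (differences -0.49 to -0.41, adjusted p 0.052 to 0.0803).

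P2rx5 encodes an ATP-gated cation channel and was the least abundant in iBAT of the 6 genes that were higher there. P2rx5 levels in wild-type iBAT were 12.2 to 15.7 RPKM (median 14.1) at 20 °C, 13.8 to 20.0 (median 16.5) at 30 °C and 13.7 to 19.3 (median 16.0) on high fat diet. Ucp1-KO iBAT held P2rx5 at 6.28 to 13.1 RPKM (median 8.78) at 20 °C, 9.30 to 21.2 (median 11.3) at 30 °C and 5.67 to 11.4 (median 8.88) on high fat diet. The genotypes did not overlap on high fat diet and overlapped in both control diet conditions. P2rx5 levels in wild-type iWAT were 4.55 to 6.26 RPKM (median 5.34) at 20 °C, 1.82 to 3.25 (median 2.81) at 30 °C and 1.59 to 4.02 (median 2.33) on high fat diet. Ucp1-KO iWAT held P2rx5 at 4.67 to 8.15 RPKM (median 6.71) at 20 °C, 3.41 to 5.62 (median 3.91) at 30 °C and 1.42 to 3.19 (median 2.73) on high fat diet. In wild-type iWAT every 20 °C library lay above every 30 °C library, and the genotypes were apart at 30 °C on control diet, with Ucp1-KO higher, and overlapped otherwise. P2rx5 was lower in Ucp1-KO iBAT in all 3 conditions, by 1.49-fold at 20 °C (-0.55 ± 0.13, adjusted p = 0.000406), 1.31-fold at 30 °C (-0.40 ± 0.13, adjusted p = 0.005) and 1.81-fold on high fat diet (-0.80 ± 0.13, adjusted p = 4.35e-07). Without the 10 muscle-rich libraries of iBAT the 30 °C difference was -0.23 (adjusted p = 0.191). Of the groups compared, this left out replicates 3, 5 and 8 of Ucp1-KO and 3 and 8 of wild-type iBAT at 30 °C.

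In iWAT, P2rx5 was 1.97-fold higher at 20 °C than at 30 °C in wild-type mice (0.78 ± 0.11, adjusted p = 3.33e-06). Its genotype difference at 20 °C was the smallest of the 6 genes (0.26 ± 0.11, adjusted p = 0.046) and was lost without the muscle-rich libraries (adjusted p = 0.0668) and without replicate 1, 2, 3, 4 or 8 of Ucp1-KO iWAT at 20 °C, or replicate 1, 2, 3, 5, 6 or 7 of wild-type iWAT at 20 °C (differences 0.22 to 0.26, adjusted p 0.053 to 0.106). In Ucp1-KO iBAT it was lower at 20 °C than at 30 °C (-0.37 ± 0.13, adjusted p = 0.00842), against a median of -0.34 over all genes, and the sign turned after median-ratio scaling (0.02) and quantile normalization (0.08).

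Slc36a2 encodes a proton-coupled transporter of small amino acids and had the smallest depot gap of the 6 genes. Slc36a2 levels in wild-type iBAT were 211 to 257 RPKM (median 230.3) at 20 °C, 246 to 279 (median 252) at 30 °C and 172 to 280.1 (median 203) on high fat diet. Ucp1-KO iBAT held Slc36a2 at 212 to 289 RPKM (median 243) at 20 °C, 179 to 283 (median 207) at 30 °C and 132 to 237 (median 181) on high fat diet. All of these groups overlapped in every comparison within iBAT. Slc36a2 levels in wild-type iWAT were 94.5 to 129 RPKM (median 114) at 20 °C, 58.0 to 87.1 (median 66.3) at 30 °C and 40.6 to 75.0 (median 54.6) on high fat diet. Ucp1-KO iWAT held Slc36a2 at 157 to 214 RPKM (median 179) at 20 °C, 105 to 145 (median 118) at 30 °C and 53.2 to 89.0 (median 75.0) on high fat diet. On control diet, iWAT libraries at 20 °C lay above those at 30 °C in each genotype, and Ucp1-KO libraries above wild-type ones at each temperature, all without overlap. At 20 °C in Ucp1-KO mice the 2 depots overlapped, and the iWAT mean reached 75.0% of the iBAT mean. In iWAT, Slc36a2 was 1.62-fold higher in Ucp1-KO mice at 20 °C (0.68 ± 0.11, adjusted p = 7.39e-07) and 1.77-fold higher at 30 °C (0.82 ± 0.11, adjusted p = 3.62e-07).

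In iBAT, Slc36a2 was lower in Ucp1-KO mice at 30 °C (-0.26 ± 0.09, adjusted p = 0.0145) and on high fat diet (-0.27 ± 0.09, adjusted p = 0.0136). Its level ran against the summed muscle markers within groups (r = -0.45 over 48 libraries, a description). That of Otop1 did so too (r = -0.49), while that of Lhx8 ran with them (r = 0.41). Without the muscle-rich libraries the Slc36a2 differences were -0.19 (adjusted p = 0.104) and -0.08 (adjusted p = 0.506). The high fat call was also lost without replicate 3 of wild-type iBAT on high fat diet (difference -0.20, adjusted p 0.0519). On high fat diet the Ucp1-KO difference from control diet (-0.31 ± 0.09, adjusted p = 0.0184) was lost without the muscle-rich libraries (adjusted p = 0.248) and without replicate 6 of Ucp1-KO iBAT at 30 °C, or replicate 3 or 7 of Ucp1-KO iBAT on high fat diet (differences -0.26 to -0.25, adjusted p 0.052 to 0.0614), and the wild-type one (-0.31 ± 0.09, adjusted p = 0.0102) was not lost with any single library left out.

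Pank1 encodes pantothenate kinase, which catalyses the first step of coenzyme A synthesis. Pank1 levels in wild-type iBAT were 109 to 137 RPKM (median 122) at 20 °C, 149.8 to 194 (median 170.0) at 30 °C and 122 to 169 (median 157) on high fat diet. Ucp1-KO iBAT held Pank1 at 91.1 to 159 RPKM (median 127) at 20 °C, 50.4 to 109 (median 70.8) at 30 °C and 31.5 to 72.4 (median 56.5) on high fat diet. As with Otop1, the genotypes overlapped at 20 °C and were apart at 30 °C on both diets, with every Ucp1-KO library lower. Pank1 levels in wild-type iWAT were 7.70 to 19.4 RPKM (median 12.7) at 20 °C, 3.25 to 5.60 (median 4.22) at 30 °C and 1.36 to 4.11 (median 2.13) on high fat diet. Ucp1-KO iWAT held Pank1 at 33.4 to 65.2 RPKM (median 42.5) at 20 °C, 7.67 to 14.3 (median 9.99) at 30 °C and 1.41 to 3.67 (median 2.40) on high fat diet. The same separation by temperature and by genotype held for Pank1 in iWAT on control diet, and on high fat diet the genotypes overlapped. Pank1 was 2.33-fold lower in Ucp1-KO iBAT at 30 °C (-1.24 ± 0.12, adjusted p = 1.86e-12) and 2.89-fold lower on high fat diet (-1.55 ± 0.12, adjusted p = 3.53e-15), the largest genotype difference of the members in that depot and diet. In wild-type iBAT it was 1.38-fold lower at 20 °C (-0.46 ± 0.12, adjusted p = 0.001), a call lost after median-ratio scaling (-0.30, adjusted p = 0.0662), while in Ucp1-KO iBAT it was 1.74-fold higher (0.81 ± 0.12, adjusted p = 3.41e-08). In Ucp1-KO iWAT it was 4.27-fold lower on high fat diet (-1.75 ± 0.17, adjusted p = 1.26e-10), and on that diet the genotypes had nearly the same mean (2.45 ± 0.984 RPKM in wild-type and 2.46 ± 0.801 RPKM in Ucp1-KO mice, SD, n = 8).

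Phospho1, a phosphatase of phosphocholine and phosphoethanolamine known from bone mineralisation, was the most abundant member in 5 of the 6 iBAT groups. The exception was wild-type iBAT at 20 °C, where Slc36a2 had the highest mean (232 RPKM). Phospho1 levels in wild-type iBAT were 174 to 249 RPKM (median 191) at 20 °C, 275 to 491 (median 314) at 30 °C and 202 to 271 (median 258) on high fat diet. Ucp1-KO iBAT held Phospho1 at 499 to 721 RPKM (median 626) at 20 °C, 229 to 449 (median 281) at 30 °C and 190.3 to 394 (median 261) on high fat diet. At 20 °C every Ucp1-KO library lay above every wild-type library, while at 30 °C the genotypes overlapped on both diets. Phospho1 levels in wild-type iWAT were 15.3 to 43.3 RPKM (median 24.1) at 20 °C, 7.65 to 22.1 (median 11.3) at 30 °C and 4.75 to 11.7 (median 5.92) on high fat diet. Ucp1-KO iWAT held Phospho1 at 140.4 to 349 RPKM (median 164) at 20 °C, 17.1 to 34.8 (median 28.5) at 30 °C and 5.94 to 11.5 (median 7.5) on high fat diet. The Ucp1-KO libraries of iWAT at 20 °C lay above those of every other iWAT group, and in the other comparisons within iWAT the groups overlapped, except between the diets in Ucp1-KO mice. Phospho1 was 3.05-fold higher in Ucp1-KO iBAT at 20 °C (1.60 ± 0.12, adjusted p = 1.14e-14) and 6.99-fold higher in Ucp1-KO iWAT at 20 °C (2.79 ± 0.21, adjusted p = 2.41e-14).

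Cold moved Phospho1 in opposite directions in iBAT of the 2 genotypes: it was 1.74-fold lower at 20 °C in wild-type mice (-0.78 ± 0.12, adjusted p = 1.35e-06) and 2.06-fold higher in Ucp1-KO mice (1.06 ± 0.12, adjusted p = 3.05e-10), with no overlap in either. The genotype difference at 30 °C (-0.24 ± 0.12, adjusted p = 0.0867) did not pass, but it did after median-ratio scaling (-0.58, adjusted p = 0.000109) and quantile normalization (-0.36, adjusted p = 0.02), and without replicate 6 of Ucp1-KO iBAT at 30 °C, or replicate 3 of wild-type iBAT at 30 °C (differences -0.33 to -0.28, adjusted p 0.014 to 0.047). In wild-type iWAT it was lower on high fat diet (-0.67 ± 0.21, adjusted p = 0.0226), a call lost without replicate 3 of wild-type iWAT at 30 °C, or replicate 1 of wild-type iWAT on high fat diet (differences -0.61 to -0.54, adjusted p 0.0573 to 0.0766). In the annotation Phospho1 overlaps Zfp652 on the same strand and Abi3 on the other. Of 9 Zfp652 transcripts, 2 followed Phospho1 over the 96 libraries (r = 0.99) at mean levels of 61.7 to 63.8 RPKM, while the other 7 lay at 4.90 to 8.38 RPKM and ran against it (r from -0.87 to -0.76). Of 8 Abi3 transcripts, 3 followed it at r = 0.996. Reads of the overlapping genes cannot be told apart here, since the counting is not described in the sources used.

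Tmem26, a membrane protein used as a surface marker of beige cells, was low throughout. In wild-type iBAT it had 0 to 5 reads per library and at most 0.0732 RPKM. In Ucp1-KO iBAT it measured 0 to 0.0644 RPKM (median 0.0234) at 20 °C, 0.165 to 0.815 (median 0.60) at 30 °C and 0.0353 to 0.671 (median 0.462) on high fat diet, which stood for 0 to 4, 13 to 52 and 2 to 43 reads. It passed the filter in iBAT only through the 30 °C groups of Ucp1-KO mice, so it had to differ there, and it was not tested at all once single libraries of those groups were left out. Tmem26 levels in wild-type iWAT were 0.518 to 1.93 RPKM (median 1.08) at 20 °C, 1.40 to 2.45 (median 1.87) at 30 °C and 0.549 to 2.87 (median 1.11) on high fat diet. Ucp1-KO iWAT held Tmem26 at 0.180 to 0.835 RPKM (median 0.571) at 20 °C, 0.438 to 1.94 (median 1.12) at 30 °C and 0.437 to 2.65 (median 1.50) on high fat diet. Within iWAT these groups overlapped in every comparison. It was higher in iWAT than in iBAT in all 6 conditions, with differences from -1.50 to -0.46, and the depots overlapped in Ucp1-KO mice at 30 °C on both diets.

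In iWAT, Tmem26 was 2.02-fold lower in Ucp1-KO mice at 20 °C (-0.44 ± 0.18, adjusted p = 0.0324) and 1.71-fold lower at 30 °C (-0.49 ± 0.18, adjusted p = 0.0468). Both calls were lost after median-ratio scaling (adjusted p = 0.136 and 0.0811) and without the muscle-rich libraries (adjusted p = 0.0549 and 0.102). The first was lost without replicate 2 or 8 of Ucp1-KO iWAT at 20 °C, or replicate 1, 3 or 5 of wild-type iWAT at 20 °C (differences -0.43 to -0.38, adjusted p 0.0507 to 0.075), and the second without replicate 1, 5, 6 or 7 of Ucp1-KO iWAT at 30 °C, or replicate 1, 2, 3, 4 or 5 of wild-type iWAT at 30 °C (differences -0.49 to -0.42, adjusted p 0.0581 to 0.121). Tmem26 moved with macrophage markers: over the 48 libraries r was 0.87 in iBAT and 0.91 in iWAT, and 0.62 and 0.88 within groups. It also moved with the lymphocyte sum (r = 0.83 and 0.78, and 0.53 and 0.68 within groups). With the summed preadipocyte markers r was 0.78 in each depot, and 0.32 and 0.71 within groups. Other members varied with the macrophage sum in iBAT too, with r of 0.71 for Lhx8 and 0.62 for Zic1 (0.29 and 0.26 within groups) and of -0.87 for Otop1, -0.74 for Pank1 and -0.71 for Kcnk3 (-0.40, -0.19 and -0.37 within groups). In iWAT Tmem26 ran against the pan-adipocyte sum (r = -0.86 within groups). Tbx1 in iWAT also followed macrophage (r = 0.69) and lymphocyte markers (r = 0.68). In iWAT the macrophage sum was 505 to 1034 RPKM in wild-type and 226 to 500.3 RPKM in Ucp1-KO mice at 20 °C, and 7 of 9 macrophage markers tested were lower and 0 higher in Ucp1-KO mice there, against 55.0% and 9.85% of all genes. In iBAT at 30 °C 8 of 9 were higher and 1 lower in Ucp1-KO mice, against 54.2% and 10.5%. The lymphocyte sum in iWAT was 255 to 479.7 and 73.5 to 255 RPKM in the same groups. None of these immune markers was at 0 in any group. The part of immune cells or preadipocytes in the Tmem26 and Tbx1 levels was not tested.

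**Figure D2:**
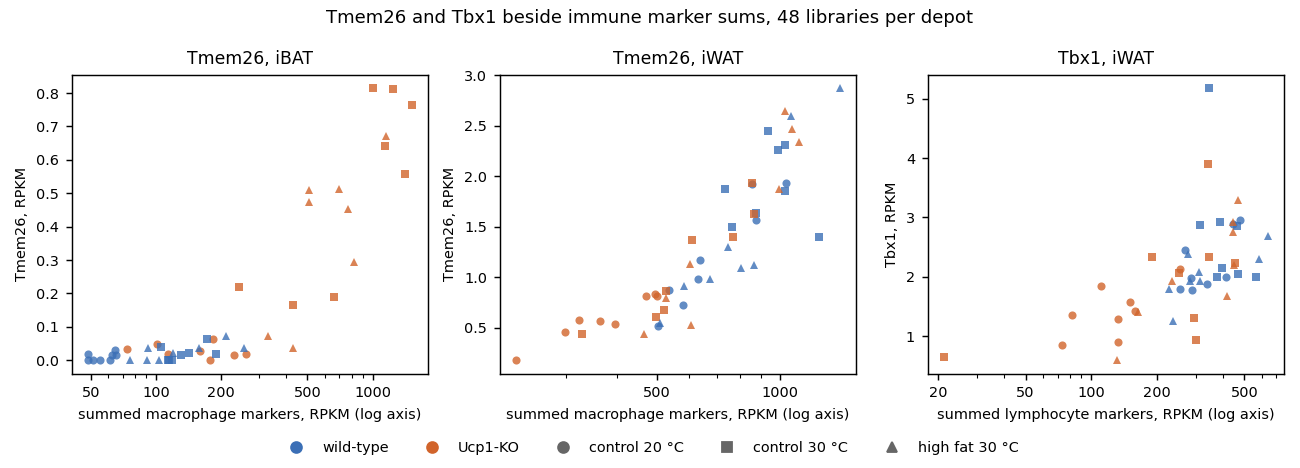
Levels in RPKM of Tmem26 in iBAT (left) and iWAT (middle) against the summed RPKM of macrophage markers, and of Tbx1 in iWAT against the summed RPKM of lymphocyte markers (right), on a log axis; each point is 1 of 48 libraries. In iBAT the high Tmem26 values are those of Ucp1-KO libraries at 30 °C, up to 0.815 RPKM, and wild-type libraries stay at or below 0.0732 RPKM.

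The depot comparison asked how far the members tell brown from white fat. Otop1, Kcnk3, P2rx5, Slc36a2, Pank1, Phospho1 and Zic1 were higher in iBAT in all 6 conditions, and Tbx1 and Tmem26 were lower in all 6; the exception among the scalings was Slc36a2 in Ucp1-KO mice at 20 °C, whose call was lost after quantile normalization (0.11, adjusted p = 0.367). Zic1 passed the filter for this comparison only through iBAT and Tbx1 only through iWAT, so the directions of these 2 were fixed by the filter and lend the counts nothing. In wild-type mice at 20 °C, 7 of 10 members were higher and 3 lower in iBAT, against 15.8% and 64.4% of the 16310 genes tested. In wild-type mice at 30 °C, 7 of 10 members were higher and 3 lower in iBAT, against 19.5% and 61.8% of the 16310 genes tested. In wild-type mice on high fat diet, 7 of 10 members were higher and 3 lower in iBAT, against 16.7% and 61.9% of the 16310 genes tested. In Ucp1-KO mice at 20 °C, 8 of 10 members were higher and 2 lower in iBAT, against 20.2% and 42.7% of the 16310 genes tested. In Ucp1-KO mice at 30 °C, 7 of 10 members were higher and 2 lower in iBAT, against 26.3% and 35.8% of the 16310 genes tested. In Ucp1-KO mice on high fat diet, 7 of 10 members were higher and 2 lower in iBAT, against 24.5% and 45.0% of the 16310 genes tested. The median difference of all genes was between -0.43 and -0.40 in wild-type and between -0.16 and -0.07 in Ucp1-KO mice, and higher calls were 19.8% of all calls in wild-type mice at 20 °C, against 46.4% after median-ratio scaling and 56.9% after quantile normalization. The other shares of higher calls, as deposited and under these 2 scalings, were 24.0%, 45.1% and 53.8% in wild-type mice at 30 °C, 21.2%, 45.7% and 54.2% in wild-type mice on high fat diet, 32.1%, 48.7% and 55.3% in Ucp1-KO mice at 20 °C, 42.4%, 46.4% and 51.2% in Ucp1-KO mice at 30 °C, 35.3%, 46.1% and 49.7% in Ucp1-KO mice on high fat diet.

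The share of the iBAT level that iWAT reached differed between conditions. In wild-type mice at 30 °C, Otop1 in iWAT reached 2.01% of its iBAT mean, Pank1 2.49%, Phospho1 3.40%, Kcnk3 7.83%, P2rx5 16.2% and Slc36a2 26.7%. In Ucp1-KO mice at 20 °C the shares were 53.2% for Otop1, 35.5% for Pank1, 31.8% for Phospho1, 29.3% for Kcnk3, 69.3% for P2rx5 and 75.0% for Slc36a2. For Zic1, which rests on 0 to 3 reads per iWAT library, the shares were 1.36% and 0.447%. Whether the depot gap itself differed between conditions was not tested.

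**Figure D3:**
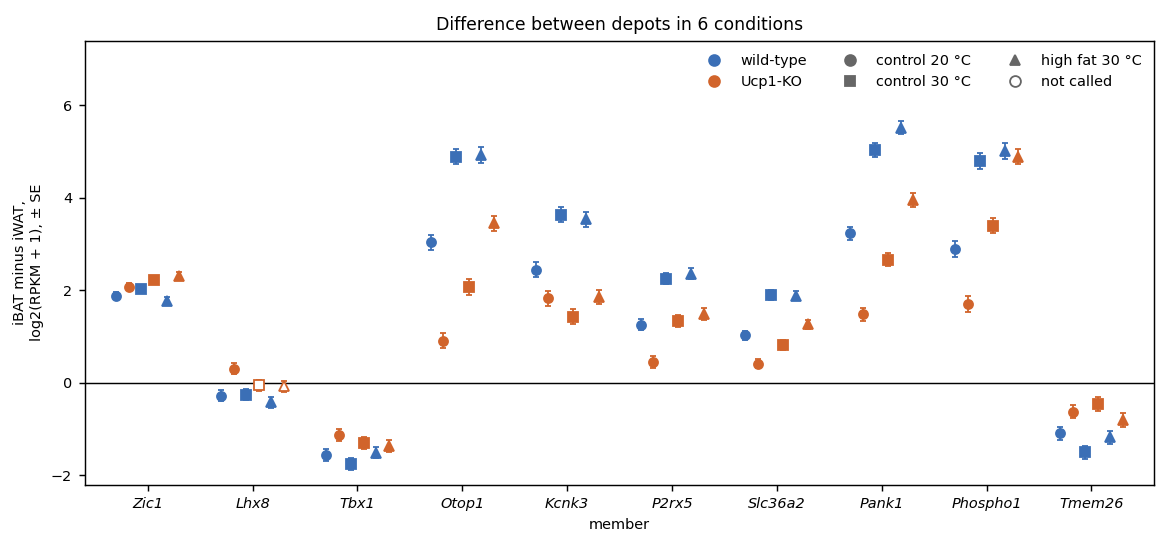
Difference between iBAT and iWAT (log2(RPKM + 1), ± SE, positive where iBAT is higher) for each member in wild-type (blue) and Ucp1-KO mice (orange) at 20 °C (circles) and 30 °C (squares) on control diet and at 30 °C on high fat diet (triangles), 8 libraries per depot and condition; open symbols did not pass the test. Lhx8 lies around 0 and Tbx1 and Tmem26 below it in every condition, and Otop1, Pank1 and Phospho1 spread over several log2 units. Zic1 varies little, but its iWAT level is close to 0, so on this scale its difference follows its iBAT level alone.

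In iWAT, the comparison of 20 with 30 °C asked what mild cold does to the members in white fat. Otop1, Kcnk3, P2rx5, Slc36a2, Pank1 and Phospho1 rose in both genotypes, and Lhx8 fell in both. In wild-type mice 6 of 9 members tested were higher and 1 lower, against 7.25% and 12.4% of 15897 genes. In Ucp1-KO mice 6 were higher and 1 lower, against 9.02% and 51.4%. The rises ran from 1.65-fold for Slc36a2 to 7.08-fold for Otop1 in wild-type mice, and from 1.50-fold for Slc36a2 to 7.11-fold for Phospho1 in Ucp1-KO mice. Phospho1 was the member whose cold effect differed between genotypes (1.62 ± 0.29, adjusted p = 0.000415), so 1 of 9 members was higher and 0 lower in that comparison, against 2.15% and 11.1% of genes. For Pank1 the difference of effects was 0.65 ± 0.23 (adjusted p = 0.0568), and it passed after median-ratio scaling (0.92, adjusted p = 0.0102) and without replicate 1 of Ucp1-KO iWAT at 20 °C, or replicate 5 of Ucp1-KO iWAT at 30 °C, or replicate 4 or 6 of wild-type iWAT at 20 °C (differences 0.70 to 0.74, adjusted p 0.0269 to 0.0443). The mitochondrial and heat genes of brown fat, a list of 16 tested genes that includes Ucp1, Cox8b and Acadl, were higher in 15 cases in wild-type and in 16 in Ucp1-KO mice, with median differences of 1.08 and 1.75.

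The median difference of all genes tested was -0.10, and higher calls were 37.0% of all calls, against 70.9% after median-ratio scaling and 64.7% after quantile normalization. These values are for wild-type iWAT. For Ucp1-KO iWAT the median was -0.25 and the shares were 14.9%, 63.4% and 53.6%, and for the difference of the effects they were -0.16, 16.2%, 83.9% and 72.5%. The 6 genes kept their calls under both scalings in both genotypes.

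Between genotypes in iWAT, the same 6 genes were higher in Ucp1-KO mice on control diet at both temperatures, and on high fat diet no member was called. This comparison shares its libraries with those of temperature and diet, so their counts are not independent. At 20 °C 6 of 9 members were higher, from 1.24-fold for P2rx5 to 6.99-fold for Phospho1, and Lhx8, Tbx1 and Tmem26 made 3 lower, against 9.85% and 55.0% of genes. All 3 lower calls were lost after median-ratio scaling. At 30 °C 6 were higher, from 1.59-fold for P2rx5 to 5.11-fold for Otop1, and 1 lower, against 7.54% and 16.2%. On high fat diet 0 were higher and 0 lower, against 0.195% and 0.0881% by limma, and at an unadjusted p under 0.05 2 were higher and 0 lower. The closest to a call there was Slc36a2 (0.35 ± 0.11, adjusted p = 0.179), which passed without replicate 7 of wild-type iWAT on high fat diet (difference 0.41, adjusted p 0.0378). Lhx8 at 20 °C (-0.40 ± 0.12, adjusted p = 0.00278) lost its call after median-ratio scaling (-0.21, adjusted p = 0.111).

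The median difference of all genes tested was -0.27, and higher calls were 15.2% of all calls, against 54.9% after median-ratio scaling and 50.8% after quantile normalization. These values are for 20 °C. At 30 °C the median was -0.12 and the shares were 31.7%, 69.6% and 65.2%, and on high fat diet they were -0.04, 68.9%, 85.4% and 88.7%.

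High fat diet lowered the 6 genes in Ucp1-KO iWAT, where Pank1 fell 4.27-fold, Phospho1 3.28-fold, Kcnk3 2.44-fold, Otop1 2.32-fold, and P2rx5 and Slc36a2 1.69-fold each. These were 6 of 9 members lower and 0 higher, against 8.31% lower and 16.1% higher among genes. In wild-type iWAT, Kcnk3, Pank1 and Phospho1 were the 3 members lower and 0 were higher, against 3.84% and 9.69%. Without the muscle-rich libraries none of these 3 passed (Kcnk3 -0.54, Pank1 -0.61, Phospho1 -0.46, with adjusted p of 0.0846, 0.056 and 0.269). With them the differences were -0.50, -0.63 and -0.67, so those of Kcnk3 and Pank1 hardly moved. Of the groups compared, this left out replicates 3, 5 and 7 of wild-type iWAT at 30 °C. On high fat diet 10 of 12 muscle markers were lower, and the part of muscle was not tested. The diet effect differed between genotypes for Otop1 (-1.32 ± 0.29, adjusted p = 0.0127) and Pank1 (-1.12 ± 0.23, adjusted p = 0.0093), which made 2 of 9 members lower and 0 higher, against 1.23% and 0.101% of genes. Otop1 lost that call without the muscle-rich libraries (-1.13, adjusted p = 0.0896). Kcnk3 (-0.74 ± 0.23, adjusted p = 0.0836) gained a call without replicate 8 of wild-type iWAT at 30 °C (difference -0.83, adjusted p 0.0391), and Phospho1 (-0.93 ± 0.29, adjusted p = 0.0994) without replicate 3 of wild-type iWAT at 30 °C (difference -1.06, adjusted p 0.0462). The shares of higher calls as deposited, after median-ratio scaling and after quantile normalization were 65.9%, 43.7% and 44.2% in Ucp1-KO and 71.6%, 62.7% and 62.8% in wild-type mice.

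In iBAT, cold moved the members differently in the 2 genotypes. In wild-type mice Lhx8, Pank1 and Phospho1 were lower at 20 °C and Otop1 higher. Thus 1 of 9 members was higher and 3 lower, close to the 11.6% and 33.0% of all 14807 genes. With only the compared groups fitted, limma also called Kcnk3 (-0.23, adjusted p = 0.046), P2rx5 (-0.21, adjusted p = 0.0215) and Slc36a2 (-0.15, adjusted p = 0.0152) lower. In Ucp1-KO mice Kcnk3 (2.97-fold), Otop1 (2.42-fold), Phospho1 (2.06-fold) and Pank1 (1.74-fold) were higher and Lhx8, P2rx5 and Tmem26 lower, so 4 were higher and 3 lower, against 13.9% and 59.5%. The test of the difference between the 2 cold effects called Phospho1 (1.84 ± 0.18, adjusted p = 1.63e-11), Kcnk3 (1.83 ± 0.22, adjusted p = 9.08e-09), Pank1 (1.27 ± 0.16, adjusted p = 2.69e-08), Otop1 (0.99 ± 0.16, adjusted p = 2.61e-06) and Slc36a2 (0.33 ± 0.13, adjusted p = 0.033) higher and Tmem26 lower, 5 and 1 of 9 members against 11.9% and 40.5% of genes. Tmem26 is counted in the last 2 comparisons, although its passing the filter through the Ucp1-KO groups at 30 °C meant that it had to differ. Slc36a2 lost this call without the muscle-rich libraries (0.25, adjusted p = 0.113) and without replicate 2 of Ucp1-KO iBAT at 20 °C, or replicate 5 of Ucp1-KO iBAT at 30 °C, or replicate 2 of wild-type iBAT at 20 °C (differences 0.30 to 0.32, adjusted p 0.0505 to 0.0623). Its cold difference in Ucp1-KO mice (0.18 ± 0.09, adjusted p = 0.0826) passed after median-ratio scaling (0.60, adjusted p = 3.29e-06) and without replicate 6 of Ucp1-KO iBAT at 30 °C (difference 0.24, adjusted p 0.0211). In the same comparison 14 of 16 mitochondrial and heat genes also had a higher cold effect in Ucp1-KO mice, with a median of 0.69.

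The median difference of all genes tested was -0.34, and higher calls were 18.9% of all calls, against 47.4% after median-ratio scaling and 53.2% after quantile normalization. These values are for Ucp1-KO iBAT. In wild-type iBAT the median was -0.12 and the shares were 26.1%, 49.8% and 49.7%, and for the difference of the effects they were -0.24, 22.7%, 47.6% and 52.6%. For Zic1 the difference of the effects turned from 0.00 to 0.36 (adjusted p = 0.035) with quantile normalization.

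Between genotypes in iBAT, Kcnk3, Otop1, Pank1, P2rx5 and Slc36a2 were lower in Ucp1-KO mice at 30 °C on both diets, while at 20 °C P2rx5 was lower and Kcnk3 and Phospho1 were higher. At 20 °C 2 of 9 members were higher and 1 lower, close to the 24.7% and 13.1% of all genes. At 30 °C 1 was higher and 5 lower, against 54.2% and 10.5%. On high fat diet 3 were higher and 5 lower, against 52.8% and 11.0%. The members' falls at 30 °C came beside median differences of all genes of 0.27 on control and 0.25 on high fat diet. The higher members there were Tmem26 on both diets, which had to differ to pass the filter, and Zic1 and Lhx8 on high fat diet. Macrophage markers, with which Otop1, Pank1 and Kcnk3 varied inversely over the iBAT libraries, were higher in these Ucp1-KO groups. These 3 genes also varied inversely with the summed preadipocyte markers (r = -0.84, -0.79 and -0.87, and -0.64, -0.71 and -0.41 within groups). With the summed genes typical of white depots r was -0.855, -0.84 and -0.75, and -0.31, -0.37 and 0.13 within groups. The part of any of these cell types in the falls was not tested. Lhx8 on high fat diet (0.46 ± 0.12, adjusted p = 0.00128) lost its call after median-ratio scaling (0.24, adjusted p = 0.0701), and the difference of Zic1 at 30 °C turned from 0.17 to -0.25 (adjusted p = 0.0285) with quantile normalization. The shares of higher calls as deposited, after median-ratio scaling and after quantile normalization were 65.4%, 51.9% and 45.2% at 20 °C, 83.7%, 51.4% and 42.0% at 30 °C, and 82.7%, 50.8% and 41.1% on high fat diet.

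High fat diet in iBAT lowered Kcnk3 and Slc36a2 in both genotypes and raised Otop1 in both. In wild-type mice Phospho1 (1.39-fold) and Zic1 (1.27-fold) were lower too, so 1 of 9 members was higher and 4 lower, against 18.5% and 14.5% of genes. In Ucp1-KO mice Pank1 (1.38-fold) and P2rx5 (1.41-fold) were lower too, so 1 was higher and 4 lower, against 8.35% and 8.02%. When only the compared groups were fitted, Kcnk3 alone of these 5 kept its call in Ucp1-KO mice. For the difference of the diet effects between genotypes, 0 members were higher and 0 lower, against 2.78% and 3.78%, by limma with adjusted p from 0.126 for Zic1 upward, and at an unadjusted p under 0.05 1 were higher and 1 lower.

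**Figure D4:**
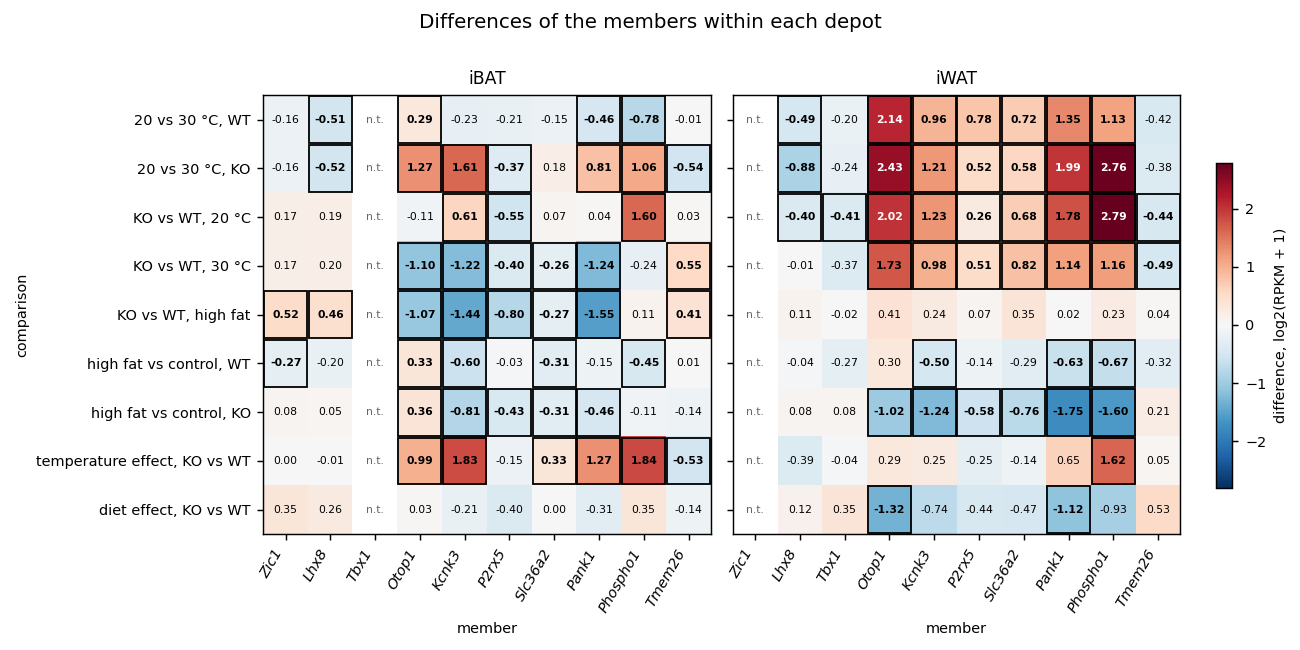
Differences of the 10 members in iBAT (left) and iWAT (right), as log2(RPKM + 1), in 7 comparisons of temperature, genotype or diet and 2 comparisons of effects between genotypes; colours run from blue (lower) to red (higher), black frames and bold numbers mark differences that passed the test, and n.t. marks a member not tested in that depot. Otop1, Kcnk3, P2rx5, Slc36a2, Pank1 and Phospho1 are framed red in the first 4 rows of iWAT, whereas in iBAT the rows of Ucp1-KO against wild-type mice at 30 °C and on high fat diet are mostly blue.

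Otop1, Kcnk3, P2rx5, Slc36a2, Pank1 and Phospho1 were then compared with each other across libraries. In iWAT their 15 pairwise correlations of log2 levels over 48 libraries ran from 0.83 to 0.97, with a median of 0.90. Within groups, that is after each group's mean was taken off, the median was 0.40. In iBAT they ran from -0.27 to 0.83, with a median of 0.47 and of 0.33 within groups. These values describe the libraries and share depth and group differences. The 6 genes are those that were higher in iBAT and rose in iWAT in the cold and in Ucp1-KO mice on control diet. That choice rests on the same libraries, so high correlations over all iWAT libraries follow in part from it. No reference set of genes was read beside them. The summed mitochondrial and heat genes followed each of the 6 genes in iWAT, with r from 0.90 for P2rx5 to 0.97 for Kcnk3 and Pank1. In iBAT r was 0.94 for Pank1, 0.87 for Otop1, 0.86 for Kcnk3, 0.62 for Slc36a2 and 0.55 for P2rx5, but 0.17 for Phospho1. For Zic1 and Lhx8 it was -0.56 and -0.60 over the iBAT libraries and -0.0012 and -0.34 within groups. The sum includes Ucp1, the targeted gene, which made up 8227 of 15756 RPKM on average in wild-type iBAT at 30 °C, so r over all libraries also follows genotype. Within groups r in iBAT was 0.53 for Pank1, 0.59 for Otop1, 0.83 for Kcnk3, 0.47 for Slc36a2, 0.39 for Phospho1 and 0.20 for P2rx5. In iWAT it ran from 0.50 for P2rx5 to 0.70 for Phospho1 within groups.

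The genes most similar to a member were those of highest correlation over the 48 libraries of a depot among genes of at least 5 RPKM. In iBAT these were Sfxn5, Acat1 and Pet112 (r between 0.93 and 0.94) for Otop1, Uqcrc1, Impa2 and Ctsf (r = 0.94 each) for Kcnk3, and Uck1, Crls1 and Slc22a5 (r between 0.81 and 0.84) for Slc36a2. P2rx5 was most like Mrpl49, Pald1 and Scoc (r between 0.74 and 0.79), Zic1 most like Usp33, Wdr36 and Naa25 (r between 0.73 and 0.75) and Lhx8 most like C4b, Arf1 and Cmklr1 (r = 0.81 each). For Phospho1 the list was headed by the overlapping Zfp652 and Abi3, followed by Rnf185 (r = 0.89). Tmem26 was most like Man2b1, Cd300a and Slc11a1 (r between 0.91 and 0.92), of which Cd300a and Slc11a1 are genes of myeloid cells. In iWAT they were Acaa2, Abcd3 and Etfdh (r = 0.97 each) for Otop1 and Pdhb, Pdhx and Ppp1r3b (r = 0.97 each) for Kcnk3. Pank1 was most like Ppp1r3b, Elovl3 and Gpd2 (r between 0.97 and 0.98), P2rx5 most like Ldhd, Fasn and Acaca (r between 0.92 and 0.93), and Phospho1, after its 2 overlapping genes, like Letmd1 (r = 0.98). Lhx8 was most like Cmip, Acvr1b and Cmklr1 (r between 0.88 and 0.89). Tbx1 was most like Cd209b, Timd4 and Il22ra2 (r between 0.79 and 0.80), of which Cd209b and Timd4 are macrophage receptors, and Tmem26 most like Add3, Ms4a6c and Cd38 (r = 0.94 each).

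The other genes of the members' families and pathways were read in the same comparison. Of 7 genes of coenzyme A synthesis, Pank1 included, 4 (Pank1, Pank3, Ppcs and Coasy) were higher and 3 (Pank2, Pank4 and Ppcdc) lower in Ucp1-KO iWAT at 20 °C, against 9.85% and 55.0% of all genes. Coasy, the enzyme of the last steps, was higher there (0.76 ± 0.09; means 40.3 and 70.6 RPKM), and Pank3, the most abundant kinase of iWAT, differed by 0.32 ± 0.09. Of 9 enzymes of choline and phosphocholine metabolism 5 were higher and 3 lower, among them Chkb, a choline kinase (0.64 ± 0.10). Of 6 potassium channels of the Kcnk family 1, Kcnk3 itself, was higher and 4 were lower. The next most abundant, Kcnk6, had a mean of 4.72 RPKM in iWAT and 2.03 RPKM in iBAT, where Kcnk3 stood at 40.1 and 203 RPKM. Of 5 P2X receptors, P2rx5 and P2rx6 were the 2 higher and P2rx4 and P2rx7, which macrophages carry, the 2 lower. Of 3 Slc36 transporters, Slc36a2 was higher and Slc36a1 and Slc36a4 were the 2 lower. Of the otopetrins, Otop1 alone passed the filter.

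Of 9 other beige markers, 0 were higher and 8 lower in wild-type iBAT than in iWAT at 30 °C (median -2.09), against 19.5% and 61.8% of all genes. In iWAT 1 of 9, Shox2, was higher and 5 lower in Ucp1-KO mice at 20 °C (median -0.57), a share of lower genes like that of all genes (55.0%, with 9.85% higher). Of 16 transcription factors of brown fate 10 were higher and 4 lower in iBAT in the depot comparison (median 0.48), and 6 and 4 of 16 in the genotype comparison (median 0.05), against the same shares of all genes. Both Zic factors that passed the filter, Zic1 and Zic4, which overlap on opposite strands, were higher in iBAT, and 2 of 10 T-box factors were higher and 7 lower there, close to the shares of all genes. Family genes beyond the most abundant of each list were named after their values were seen.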

How the data were processed

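Per the labels' protocols, total RNA of each tissue was made into libraries with a kit that selects mRNA and marks strand. Base calls were handled with CASAVA and bcl2fastq, per the submitters' processing notes. For the aligner, the annotation, the genome build and the use of strand in counting, the source texts give no name. The authors deposited 1 table of RPKM-like values for 168326 transcripts in 96 libraries. Its header names no unit, and the values behave as RPKM: between 95.0% and 95.7% of values of up to 20 reads fell within 0.05 of a whole read, which gave the depth and the reads behind low values.

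From these values, the transcript of highest mean stood for each symbol. Differences were tested with limma 3.58.1 (R 4.3.3, trend) on log2(RPKM + 1) among genes of at least 0.5 RPKM in at least 8 libraries. All 6 groups of a depot, or all 12 for depot differences, shared a fit, and p-values were adjusted by Benjamini and Hochberg over all genes of a comparison, with 0.05 as threshold. Errors are SE of the fit. All members are named whatever they did, and similar genes are the 3 of highest correlation. The similar genes of Pank1 in iBAT and of Slc36a2 in iWAT are not reported here. The test was tried on simulated data. Other pseudocounts, filters, scalings, transcript sums, smaller fits and left-out libraries were tried. Python 3.11.15 with pandas 2.3.3 made the summaries. The members and the gene lists were chosen with earlier results of these data known.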

Additional observations from a re-analysis of the deposited data

Results flagged for a closer look

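Of 120 sets of 8 libraries (10 members in 12 groups), 12 held 1 library far from the rest by Dixon's criterion, in 8 libraries in all. Among independent sets of normally distributed values, chance alone sets apart about 1 in 20. The sets here share libraries and some rest on few reads, so that rate need not hold for them. Zic1 stood at 0.106 RPKM in replicate 1 of Ucp1-KO iWAT at 30 °C, above the other 7 at 0 to 0.0399. Otop1 stood at 65.1 RPKM in replicate 8 of Ucp1-KO iBAT at 20 °C, below the other 7 at 75.7 to 84.4, and at 18.2 RPKM in replicate 4 of wild-type iWAT at 20 °C, above the other 7 at 5.49 to 10.6. Phospho1 stood at 449 RPKM in replicate 6 of Ucp1-KO iBAT at 30 °C, above the other 7 at 229 to 323, at 202 RPKM in replicate 8 of wild-type iBAT on high fat diet, below the other 7 at 240.2 to 271, at 349 RPKM in replicate 8 of Ucp1-KO iWAT at 20 °C, above the other 7 at 140.4 to 227, and at 22.1 RPKM in replicate 3 of wild-type iWAT at 30 °C, above the other 7 at 7.65 to 12.2. Kcnk3 stood at 457 RPKM in replicate 8 of Ucp1-KO iBAT at 20 °C, above the other 7 at 315 to 353, at 211 RPKM in replicate 6 of Ucp1-KO iBAT at 30 °C, above the other 7 at 86.0 to 127, and at 203 RPKM in replicate 8 of Ucp1-KO iWAT at 20 °C, above the other 7 at 72.5 to 106. Tbx1 stood at 0.376 RPKM in replicate 5 of Ucp1-KO iBAT at 30 °C, above the other 7 at 0.0826 to 0.181, and at 5.18 RPKM in replicate 3 of wild-type iWAT at 30 °C, above the other 7 at 1.99 to 2.92.

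The cold effect differed between genotypes in iBAT, as the Ucp1-KO effect minus the wild-type effect, by 1.84 for Phospho1, 1.83 for Kcnk3, 1.27 for Pank1, 0.99 for Otop1, 0.33 for Slc36a2 and -0.53 for Tmem26. In iWAT it differed by 1.62 for Phospho1. The effect of high fat diet differed between genotypes in iWAT by -1.32 for Otop1 and -1.12 for Pank1. Each of these differences passed its own limma test, but that of Tmem26 is no support, since the gene passed the filter in iBAT only through the Ucp1-KO groups at 30 °C and had to differ there.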

How the results depend on the processing

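Alternatives included one chosen after seeing the data that left out muscle-rich libraries. Over all of them, 62 values of single members lost and 31 gained a call, and 10 changed sign where called before or after. The other 1869 stayed on their side of the threshold. Changes of sign between values that were not called were not counted, nor were members that the filter left untested. Left-out libraries entered by their lowest and highest value. With only the compared groups fitted, the number of members called went from 5 to 1 for diet in Ucp1-KO iBAT, from 4 to 7 for cold in wild-type iBAT, from 2 to 4 for the difference of diet effects in iWAT and from 1 to 2 for the difference of cold effects there. Median-ratio scaling also gave 2 in the last. Without muscle-rich libraries it was 3 for diet in Ucp1-KO iBAT, 3 rather than 6 for genotype in iBAT at 30 °C, 0 rather than 3 for diet in wild-type iWAT and 1 for the difference of diet effects in iWAT. In that genotype comparison P2rx5 and Slc36a2 lost their calls, while Tmem26 no longer passed the filter and was not tested. Fewer libraries enter the fits without muscle-rich libraries, and otherwise the cause was not tested. Leaving out 1 library at a time gave 3 to 5 for diet in Ucp1-KO iBAT, 1 to 4 for diet in wild-type iWAT, 0 to 1 for genotype in iWAT with high fat diet and 1 to 2 for the difference of cold effects in iWAT. Signs changed for the depot difference of Lhx8 in wild-type mice (0.051 at 20 °C and 0.10 at 30 °C after median-ratio scaling, and 0.45, 0.52 and, with high fat diet, 0.27 after quantile normalization). They also changed for cold in Ucp1-KO iBAT for P2rx5 (0.018 and 0.083). With quantile normalization Zic1 in iBAT moved to 0.33 for cold in Ucp1-KO mice, -0.25 for genotype at 30 °C and 0.36 for the difference of cold effects. The cause of these changes was not tested.

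No paired analysis was possible because the labels carry no replicate number that groups share. At these depths Zic1 in iWAT and Tbx1 and wild-type Tmem26 in iBAT rest on fewer than 10 reads per library, which limits what could be detected among those groups. With no filter, Tbx1 in iBAT passed for genotype on high fat diet (0.13, adjusted p = 0.0324).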

Other observations

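Genes typical of white depots were read against the members. Of 10 tested, 0 were higher and 10 lower in wild-type iBAT than in iWAT at 30 °C (median -2.78), against 19.5% and 61.8% of all genes, among them Lep, which codes for leptin (-4.71 ± 0.39), and the homeobox gene Hoxc9 (-2.64 ± 0.09). Where Otop1, Kcnk3 and Pank1 were higher in Ucp1-KO iWAT at 20 °C, 7 of these 10 were lower and 0 higher (Lep -1.09 ± 0.41), against 55.0% and 9.85% of all genes. Where the same 3 members were lower in Ucp1-KO iBAT at 30 °C, 6 of 8 were higher and 0 lower, with Retn, which codes for resistin, at 1.47 ± 0.32 and Nnmt at 1.40 ± 0.24, against 54.2% and 10.5% of all genes. Preadipocyte markers were lower in 5 of 6 cases in that iWAT comparison and higher in 5 of 6 in that iBAT comparison. These counts were made on the values as deposited and not under other scalings. The median difference of all genes was -0.27 in that iWAT and 0.27 in that iBAT comparison.

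Other genes listed as brown markers were read in the same comparisons. Of 8 tested, 4 were higher and 3 lower in wild-type iBAT than in iWAT at 30 °C, against the 19.5% and 61.8% above. Pdk4, a kinase that holds back pyruvate dehydrogenase, was higher in iBAT (3.92 ± 0.17) and in Ucp1-KO iWAT at 20 °C (1.89 ± 0.22). Epsti1 was lower in iBAT (-4.05 ± 0.27) and in Ucp1-KO iWAT at 20 °C (-1.22 ± 0.32), and higher in Ucp1-KO iBAT at 30 °C (2.17 ± 0.19). Zic1, at 0 to 3 reads in iWAT, varied there with the muscle sum (r = 0.47 over 48 libraries, a description). Lep, Hoxc9, Retn, Nnmt, Pdk4 and Epsti1 were named after their values were seen.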
